A study of Sus scrofa with 6 samples.

Results

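The genes described here encode subunits, activators and assembly factors of the proteasome and the E1 and E2 enzymes that activate and conjugate ubiquitin and related proteins. They were defined by name, with earlier results of these data known. Members were array probe sets with 1 gene symbol that begins with PSMA to PSMG, UBE2 or UBA and a number. That rule left out 1 gene. Of 6765 different genes named on the array 65 were members, 39 of them proteasome (PSM) genes, 24 UBE2 genes and 2 UBA genes. They were represented by 91 probe sets, and the probe set with the highest mean over the arrays stood for each gene. The series holds 6 pig cell samples, each on its own Affymetrix Pig Genome Array. The somatic cells were PEF, an embryo fibroblast culture, and PAFSC, an amniotic fluid stem cell culture. The other 4 were induced pluripotent stem (iPS) lines on feeder layers of mitotically inactive mouse embryo fibroblasts, told apart by the surface glycan antigens SSEA1, SSEA3 and SSEA4. PS24 carried all of these antigens, 30AC5 carried SSEA1, and iPF4-2 and iPSCs-w carried SSEA3 and SSEA4. The labels do not give the reprogramming factors, the donor strain or the number of clones, and each line was a single array, so precision is set by how few arrays there are.

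The 26S proteasome is the cell's main machine for degrading proteins tagged with ubiquitin. Its 20S core is a barrel of alpha rings around beta rings that hold the cutting sites, and the 19S cap recognises, unfolds and feeds the tagged protein with a ring of ATPases. In cells exposed to interferon gamma the catalytic beta subunits are exchanged for immune ones such as PSMB10, and the PA28 cap of PSME1 and PSME2 can replace 19S, which alters the peptides made for MHC class I. Ubiquitin reaches a substrate through an E1 that activates it, an E2 that carries it and an E3 ligase that selects the target.

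The values are log2 values relative to an unstated baseline of each probe set. Arrays can therefore be compared within a gene, while levels of different genes cannot. The PAFSC array stood apart, with an SD of 2.01 over 23999 probe sets and a median of 0.70, against SDs of 0.610 to 0.808 and medians of -0.06 to 0.05 on the others. The mean 5' minus 3' value of the GAPDH, actin and EF1A control probe sets was 1.90 in PAFSC and -1.90 in PS24, and -0.03 to 0.19 in the other samples. The median of 9 fibroblast genes separated the somatic samples from the lines. It was 4.45 in PEF and 2.35 in PAFSC and -0.76 to 0.18 in the iPS lines. COL1A2, DCN, PRRX1, FBN1 and S100A4 each lay higher in both somatic samples than in all lines, and the other genes did not. COL3A1 was -0.003 in PEF against 0.01 to 0.72 in the lines, and THY1 was 0.88 in PAFSC and 1.07 in 30AC5. In iPF4-2 LUM was 3.77, POSTN 3.01 and DCN 2.34, against 1.59, 1.17 and 6.94 in PAFSC. The pluripotency markers did not set PS24 and 30AC5 apart from PEF: the median of the 4 measured was -0.33 and -0.37 there and -0.62 in PEF, against 1.75 in iPF4-2 and 2.26 in iPSCs-w. POU5F1 was 3.61 in iPSCs-w and 3.68 in iPF4-2, but -0.07 in 30AC5 and 0.07 in PS24, against -0.50 in PEF and 1.09 in PAFSC. Nothing in the labels says that samples of a class are repeat cultures, so a limma p-value here covers only how far these arrays lie apart.

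The constitutive 20S core was nearly level over PEF and the 4 iPS lines. The difference between the highest and the lowest of these 5 arrays was 0.350 log2 units at the median of 14 constitutive 20S genes, and 0.953 at the median of all 6765 genes. On the probe sets used it was below 1 for 28 of 29 constitutive 20S and 19S genes, where 54.6% of all probe sets lay below 1. The exception there was PSMD4, a ubiquitin receptor of the 19S cap, with 1.21. PSMD11, a 19S subunit, had a range of 0.467 on the probe set used. Another of its probe sets was -2.59 in PS24 and -0.87 in PEF, against 0.05 to 0.14 in the other lines. PSMA3, an alpha ring subunit, was -0.11 in PEF, 0.10 in 30AC5, 0.00 in PS24, 0.05 in iPSCs-w and 0.00 in iPF4-2, a range of 0.209. PSMB3, a beta ring subunit without a cutting site, had a range of 0.238 over the same arrays. Of all members UBE2K, an E2 that builds chains linked through lysine, had the smallest range, 0.164. The 3 subunits with cutting sites were level too: PSMB5, the chymotrypsin-like one, lay between -0.27 and 0.22 on these arrays, PSMB6, the caspase-like one, between -0.22 and 0.26, and PSMB7 between -0.18 and 0.22. In bulk samples, fewer cells of a type and less RNA per cell cannot be told apart.

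**Figure D1:**
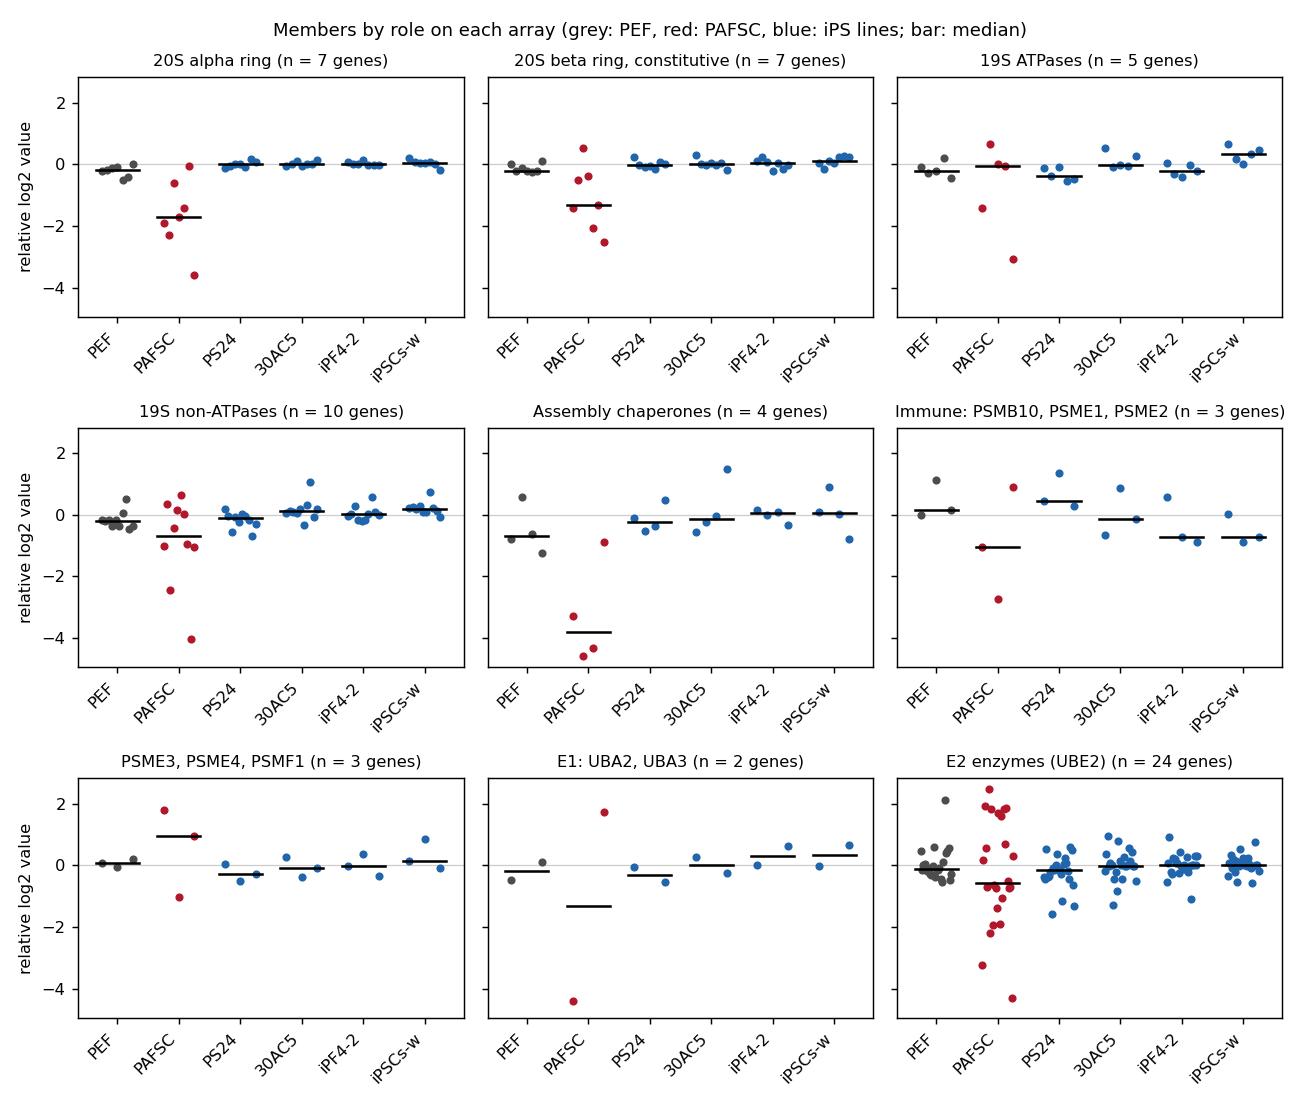
Relative log2 value of each of the 65 members (points) on each array, in a panel per role, with the median of the role as a bar. The constitutive 20S genes lie between -0.52 and 0.30 outside PAFSC, while in PAFSC the alpha ring median is -1.71 and the beta ring median -1.32.

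**Figure D2:**
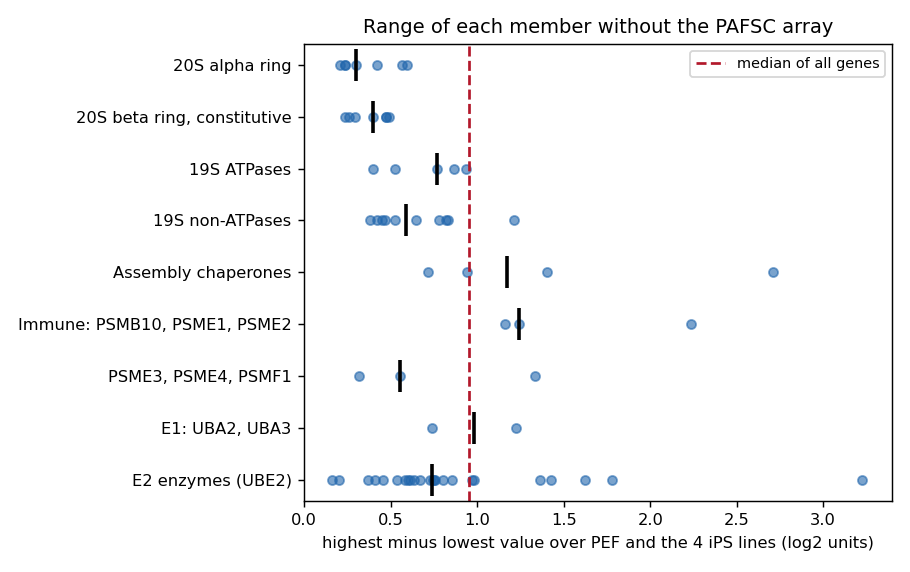
Highest minus lowest relative log2 value over PEF and the 4 iPS lines for each member (points), by role, with the median of the role as a black tick and the median of all genes, 0.953, as a dashed line. All 14 constitutive 20S genes lie below 0.6, and the 3 immune genes lie at 1.16 and above.

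The first comparison asked how the iPS lines differed from embryo fibroblasts. Limma called 0 of the 65 members at an adjusted p under 0.05, against 0.567% of all probe sets (136 of 23999). At an unadjusted p under 0.05 it gave 2 members, 3.08% of them, against 12.3% of all probe sets. PEF has no replicate, and the fit took it to vary like the lines. Only PSMG3 and UBE2QL1 differed from PEF by more than 1 log2 unit, 2 of 65, against 16.8% of probe sets. All 4 lines lay above PEF for 27 members and below it for 7, against 32.4% and 19.1% of probe sets.

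In the 20S core 12 of 14 genes lay lower in PEF than in every iPS line, against 32.4% of all probe sets. Some did so by little: PSMB4 was -0.210 in PEF and -0.208 in iPF4-2, and PSMB1 0.003 in PEF and 0.045 in iPSCs-w. A higher mean in the lines was found for 13 of 14, against 61.4% of all probe sets. The shift was small: the median difference was 0.17 in the 20S core and also 0.17 over all genes. PSMA5, an alpha ring subunit, was -0.52 in PEF, 0.02 in 30AC5, -0.08 in PS24, 0.08 in iPSCs-w and -0.02 in iPF4-2, with a difference of 0.52 (SE 0.24, limma adjusted p = 0.486). It was the 20S gene with the largest difference. PSMA6, another alpha ring subunit, was -0.41 in PEF against -0.01 to 0.16 in the lines, a difference of 0.45 (SE 0.25, limma adjusted p = 0.561).

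The 19S cap spread more between lines than the core. Its 10 non-ATPase genes had a median difference from PEF of 0.28, with 9 of 10 higher in the mean, and its 5 ATPases of 0.12, with 4 of 5 higher, beside the 61.4% of all probe sets. PSMC6, an ATPase, was -0.43 in PEF, 0.26 in 30AC5, -0.47 in PS24, 0.47 in iPSCs-w and -0.22 in iPF4-2, so the PS24 and PEF values lay together below the rest. The ATPase median was -0.37 in PS24, the line with low 5' control signal, and 0.33 in iPSCs-w, and the part of that signal in the difference was not tested. PSMD14, the deubiquitinase of the cap, lay between -0.23 and 0.19 over PEF and the lines, and PSMD4 was 0.52 in PEF, 1.05 in 30AC5, -0.16 in PS24, 0.56 in iPF4-2 and 0.24 in iPSCs-w, with PEF inside the range of the lines. PSMD6, a structural subunit, was -0.69 in PS24 and -0.06 to 0.13 in the other lines.

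Assembly chaperones showed wider differences. PSMG3, which helps build the alpha ring, was -1.23 in PEF and -0.88 in PAFSC, and 1.47 in 30AC5, 0.49 in PS24, -0.79 in iPSCs-w and -0.33 in iPF4-2. All lines lay above both somatic samples, with a difference from PEF of 1.44 (SE 0.87, limma adjusted p = 0.592) and from both somatic samples of 1.26 (SE 0.68, limma adjusted p = 0.421), or 0.84 without 30AC5. PSMD5, a chaperone of the ATPase ring, was 0.59 in PEF and -4.59 in PAFSC, and -0.52, -0.23, -0.01 and 0.89 in PS24, 30AC5, iPF4-2 and iPSCs-w. PSMD10, also called gankyrin, a chaperone of the 19S base, was -0.78 in PEF, -0.57 in 30AC5, -0.10 in PS24, 0.10 in iPSCs-w and 0.17 in iPF4-2 (difference 0.67, SE 0.37, limma adjusted p = 0.552).

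Among the E2 genes the differences from PEF went both ways, with 11 of 24 higher and 13 lower in the mean. UBE2QL1, an E2-like protein, differed most of all members. It was 2.14 in PEF and 1.87 in PAFSC, and 0.56 in 30AC5, -0.17 in PS24, -0.58 in iPSCs-w and -1.09 in iPF4-2. The somatic samples and the lines did not overlap, with a difference from PEF of -2.46 (SE 0.63, limma adjusted p = 0.230) and from both of -2.32 (SE 0.57, limma adjusted p = 0.217). UBE2A, a homologue of yeast RAD6 that marks histone H2B and stalled replication forks, was 0.45 in PEF and -0.38, -0.18, -0.52 and -0.34 in PS24, 30AC5, iPF4-2 and iPSCs-w, so the lines differed by -0.81 (SE 0.27, limma adjusted p = 0.324). Its value in PAFSC, -3.24, lay below all of these. UBE2C, the E2 of the anaphase-promoting complex, was 0.00 in PEF and 0.52, 0.97, 0.93 and 0.35 in the same lines (difference 0.70, SE 0.35, limma adjusted p = 0.513). Its second probe set had -0.29 in PEF and -0.15 to 0.21 in the lines. Cell cycle genes lay beside it: all 7 measured had a higher mean in the lines than in PEF, with a median of 0.61, where 61.4% of all probe sets were higher, and their part in the UBE2C difference was not tested. UBE2T, the E2 of Fanconi anaemia DNA repair, was 0.47 in PEF and, in the same order of lines, 0.59, 0.43, 0.01 and 0.76, with PEF inside their range.

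The second comparison set the SSEA1-labelled lines PS24 and 30AC5 against iPF4-2 and iPSCs-w, which carry SSEA3 and SSEA4 only. The median difference was -0.06 in the alpha ring and -0.05 in the constitutive beta ring, while PSME1 and PSME2, the subunits of the PA28 cap, were higher in both SSEA1-labelled lines. Limma called 0 of 65 members, as it called 0 of all probe sets (background 0.0%). At an unadjusted p under 0.05 it gave 1 member, 1.54%, against 2.84% of all probe sets. The spread in this fit took in the distance of PAFSC from PEF, and with only the 4 iPS lines fitted, limma again called 0 members, against 0.0167% of probe sets, with 7 at an unadjusted p under 0.05, 10.8% of members against 11.1% of all probe sets.

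PSME1 was 0.87 in 30AC5 and 1.36 in PS24, against -0.88 in iPSCs-w and -0.73 in iPF4-2. PEF, at 1.13, lay among the SSEA1-labelled lines, and PAFSC was lowest with -2.74. The classes did not overlap, and their difference was 1.92 (SE 1.16, limma adjusted p = 1.00), or 1.92 with an SE of 0.29 in the fit of only the 4 iPS lines (limma adjusted p = 0.125). It was the largest difference between the classes among the members, and 1.77% of all probe sets had one at least as high. PSME2 was -0.14 in 30AC5 and 0.27 in PS24, against -0.73 in iPSCs-w and -0.89 in iPF4-2. PEF was 0.15 and PAFSC 0.89. Its difference was 0.87 (SE 0.63, limma adjusted p = 1.00; SE 0.28 and limma adjusted p = 0.374 in the fit of the 4 lines), and 7.15% of probe sets had one at least as high.

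PSMB10, the immune counterpart of the trypsin-like subunit PSMB7, was the only immune catalytic subunit among the members. PSMB9 had no probe set with its symbol alone. PSMB10 did not share the order of PSME1 and PSME2. It was -0.66 in 30AC5, 0.46 in PS24, 0.02 in iPSCs-w and 0.58 in iPF4-2, with -0.02 in PEF and -1.05 in PAFSC. Each class held a high and a low line, and the difference was -0.40 (SE 0.72, limma adjusted p = 1.00). PSMB7 itself was 0.02, -0.18, -0.02 and 0.22 in PS24, 30AC5, iPF4-2 and iPSCs-w, 0.11 in PEF and -2.51 in PAFSC. Against PEF the immune genes differed by -0.98 (SE 0.97) for PSME1, -0.52 (SE 0.51) for PSME2 and 0.12 (SE 0.53) for PSMB10, with limma adjusted p = 0.749, 0.746 and 0.948. The PSME1 difference was -0.63 without iPSCs-w, the PSME2 difference -0.35 without iPF4-2, and the PSMB10 difference ran from -0.040 to 0.37 with 1 line left out.

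**Figure D3:**
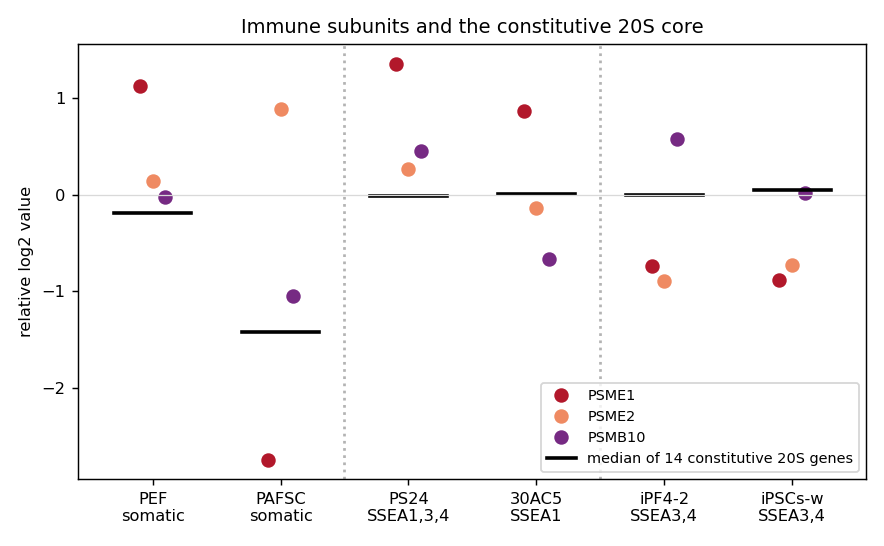
Relative log2 value of PSME1, PSME2 and PSMB10 (points) on each array, with the median of the 14 constitutive 20S genes as a black bar. PSME1 and PSME2 lie higher in PS24 and 30AC5 than in iPF4-2 and iPSCs-w, PSMB10 does not, and the 20S median stays between -0.19 and 0.05 outside PAFSC.

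Interferon response genes were read beside the immune subunits. Of 9 measured, 4 lay higher in both SSEA1-labelled lines than in both others, and 0 lower in both, beside the 21.0% and 20.2% of all probe sets given below. IRF1, a transcription factor of the interferon gamma response, was -1.05 in PAFSC, 2.14 in PEF, 0.51 in 30AC5, 1.00 in PS24, -0.49 in iPSCs-w and -1.28 in iPF4-2. As for PSME1, both SSEA1-labelled lines lay above both others, but PAFSC lay above iPF4-2. MX1 was 0.92 in 30AC5 and 1.15 in PS24, against 0.00 in iPSCs-w and -1.82 in iPF4-2. IFIT3 and ISG15, targets of type I interferon, were instead highest of the lines in iPSCs-w, at 4.26 and 2.86. GBP1 split the SSEA1-labelled lines, with 2.96 in 30AC5 and -0.005 in PS24, against 0.005 in iPF4-2, -0.30 in iPSCs-w and 4.59 in PEF. Against PEF, 1 of the 9 had a higher mean in the lines, with a median difference of -1.22, where 61.4% of all probe sets were higher. PSME1 and PSME2 lie close together on pig chromosome 7 in the RefSeq gene order of Sscrofa11.1, with EMC9 between them and IRF9 on the other side of PSME2. EMC9, a subunit of a membrane insertion complex, was -0.04 in 30AC5, 0.39 in PS24, 0.49 in iPSCs-w and 0.00 in iPF4-2, so it did not separate the classes. IRF9 was 0.25 in 30AC5 and -0.25 in PS24, against -0.44 in iPSCs-w and -0.70 in iPF4-2. Of leukocyte genes, which could mark cells rich in immune proteasomes, PTPRC was 0.17, -0.01, 0.18 and -0.02 in PS24, 30AC5, iPF4-2 and iPSCs-w, and CD14 was 0.16, -0.06, -0.10 and 0.00. AIF1 was -1.63 and -1.86 in the SSEA1-labelled lines and 3.87 and 3.74 in the others, opposite in direction to PSME1. The medians of the 4 leukocyte genes measured were 0.12 and -0.04 in PS24 and 30AC5 and 0.37 and 0.11 in iPF4-2 and iPSCs-w. Epithelial genes separated the classes, with 5 of 5 lower in both SSEA1-labelled lines and medians of 1.12 in 30AC5, -0.16 in PS24, 3.18 in iPF4-2 and 3.45 in iPSCs-w. So did the 4 pluripotency genes measured. The part of these lists in the differences between the classes was not tested.

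Other members separated the classes as well. In all, 8 of 65 members had both SSEA1-labelled lines above both others, and 19 had them below. The background was 21.0% and 20.2% of probe sets. UBE2E2, an E2 of the UBCH8 family, was -1.27 in 30AC5 and -1.58 in PS24, against 0.14 in iPSCs-w and 0.20 in iPF4-2, with -0.14 in PEF and -2.20 in PAFSC. The difference was -1.60 (SE 0.80, limma adjusted p = 1.00; limma adjusted p = 0.146 in the fit of the 4 lines). In the order PS24, 30AC5, iPF4-2 and iPSCs-w, PSME4, the PA200 activator linked to acetylated histones, was -0.50 and -0.38 against 0.36 and 0.84, a difference of -1.04 (SE 0.65). PSMG3 went the other way with 1.54 (SE 0.66), and UBE2QL1 differed by 1.03 (SE 0.64), all at limma adjusted p = 1.00. Without 30AC5 the UBE2QL1 difference was 0.66. After quantile normalization the differences were -2.40 for UBE2E2, -1.57 for PSME4, 1.62 for UBE2QL1 and 1.43 for PSME2. UBE2W, an E2 that acts on protein N-termini, was -1.30 and -0.49 against 0.32 and -0.19, but its second probe set was -0.06 and 0.36 against 0.59 and -0.88 and did not separate the classes. UBE2M, the E2 of NEDD8, did not separate them either and was -1.15 and 0.27 against -0.13 and -0.01, so that PS24 alone was low. UBA3, the catalytic subunit of the E1 for the ubiquitin-like protein NEDD8, was -0.55 and -0.25 against 0.62 and 0.67, a difference of -1.05 (SE 0.72, limma adjusted p = 1.00). None of its 4 other probe sets separated the classes; one of them was 0.40 and 0.73 against 0.45 and 0.34. With all its probe sets averaged the difference was -0.50, and after quantile normalization -1.58.

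**Figure D4:**
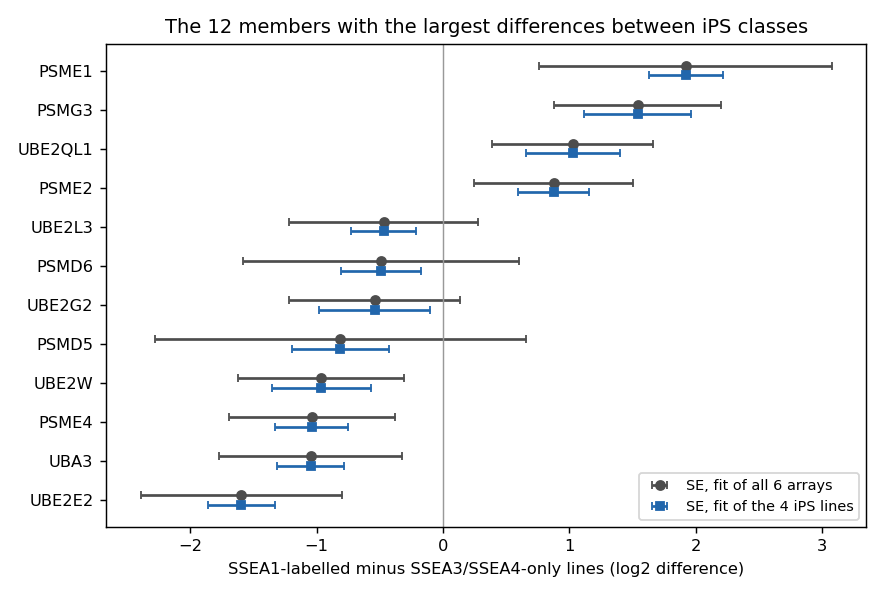
Differences between SSEA1-labelled and SSEA3/SSEA4-only iPS lines for the 12 members with the largest absolute values, with error bars of 1 SE from the fit of all 6 arrays (grey circles) and from the fit of the 4 iPS lines (blue squares). PSME1 is highest at 1.92 and UBE2E2 lowest at -1.60, and the error bars are shorter without the somatic arrays.

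Within a class the lines differed by 0.071 log2 units between PS24 and 30AC5 at the median of the constitutive 20S genes and by 0.420 at that of the 19S genes, against 0.339 over all genes. Between iPF4-2 and iPSCs-w the medians were 0.133, 0.326 and 0.324. PSMB10 differed by 1.12 between the first pair and by 0.560 between the second.

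The third comparison set the lines against both somatic samples. Limma called 0 of 65 members, against 0.025% of probe sets, and 7 members had an unadjusted p under 0.05, 10.8% against 13.7% of probe sets. All 4 lines lay above both somatic samples for 21 members and below both for 4, against 11.9% and 9.99% of probe sets. The 7 were UBE2QL1 and 6 genes for which PAFSC was far below all other arrays. UBA2, a subunit of the E1 for SUMO, was -4.38 in PAFSC, -0.47 in PEF and -0.05 to 0.27 in the lines, a difference of 2.48 (SE 0.94, limma adjusted p = 0.337). PSMG1, an alpha ring chaperone, was -4.32, -0.62 and -0.36 to 0.10, a difference of 2.40 (SE 0.90, limma adjusted p = 0.336). The others were UBE2V2, a catalytically inactive partner of UBE2N, with 2.23 (SE 0.94), PSMD6 with 2.13 (SE 0.89), PSMD10 with 1.93 (SE 0.71) and PSMC6 with 1.76 (SE 0.74). These 6 differences rested on PAFSC: without it they were 0.53 for UBA2, 0.55 for PSMG1, 0.31 for UBE2V2, 0.35 for PSMD6, 0.67 for PSMD10 and 0.44 for PSMC6, and without PEF 4.44, 4.25, 4.16, 3.91, 3.19 and 3.07 in the same order. After quantile normalization they were 1.33, 1.25, 0.98, 0.96, 1.02 and 0.83.

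In PAFSC the constitutive proteasome genes lay low. This array also stood apart as a whole in its SD, median and control signal. The part of these array-wide differences in the low values was not tested. All 29 were below the array's own median of 0.70, as were 50.0% of all probe sets, and PAFSC was the lowest of the 6 arrays for 20 of the 29, against 27.7%. Over all 65 members PAFSC was lowest for 39 and highest for 17, and highest for 50.1% of probe sets. Its value was under -1 for 29 members, against 24.0% of probe sets. PSMA7 was -3.58 there and -0.18 to 0.12 elsewhere, and PSMB7 was -2.51 against -0.18 to 0.22. The least low were PSMB3, at 0.51, and PSMD2, a scaffold of the 19S base, at 0.66, each from its only probe set. PSMC2 was 0.67 on the probe set used, but its other probe sets were -5.14 and -5.97. E2 genes were split, with UBE2V2 at -4.31 and UBE2A at -3.24 but UBE2D4 at 2.47 and UBE2O at 1.83. The high values differed between probe sets: the second of UBE2O was at -0.0028 and the others of UBE2D4 at 2.15 and 0.59. PSME3, the nuclear PA28 gamma, was 1.81 in PAFSC and -0.03 to 0.28 elsewhere.

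With PEF left out of the fit, so that PAFSC alone stood against the 4 lines, limma called 59.6% of all probe sets, 20.7% higher and 38.9% lower in the lines. Of the 65 members it called 28 higher and 9 lower. Of the 29 constitutive 20S and 19S genes 15 were called higher in the lines and 0 lower, among them PSMA7 with a log2 difference of 3.58 (SE 0.26, limma adjusted p = 9.14e-04) and PSMB7 with 2.52 (SE 0.27, limma adjusted p = 0.00201). This sets 1 array against 4 and takes it to vary like the lines. The 7 cell cycle genes measured had a median of -3.96 in PAFSC, from -7.24 for TOP2A to 0.20 for PLK1. PAFSC was the lowest array for TOP2A, BIRC5, CCNB2, CCNB1 and AURKA, but the highest for PLK1, and CCNA2 was -0.23 there against -1.54 in PEF and -3.02 in PS24. Their part in the proteasome values was not tested.

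Probe sets of one gene disagreed most, at the median, on the PAFSC array. Among the 17 members with several probe sets, the highest and the lowest differed in PAFSC by 1.24 at the median, against 0.265 to 0.602 on the other arrays. PSMC2 had 0.67 on the chosen probe set but -5.14 and -5.97 on the others, while on every other array these differed by at most 0.485. UBE2C had 1.93 and -2.67, and UBA3 ran from -3.97 to 1.73. Because the probe set with the highest mean stood for a gene, these genes appear high in PAFSC. Over all 2261 genes with several probe sets the median spread in PAFSC was 1.72. The spread in PAFSC was over 2 for 5 of the 17 members, against 44.6% of these genes. PS24 also had large spreads, with 2.56 for PSMD11, 2.38 for UBE2V1 and 1.48 for PSMF1. In PAFSC the same members had 0.67, 1.75 and 0.78.

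**Figure D5:**
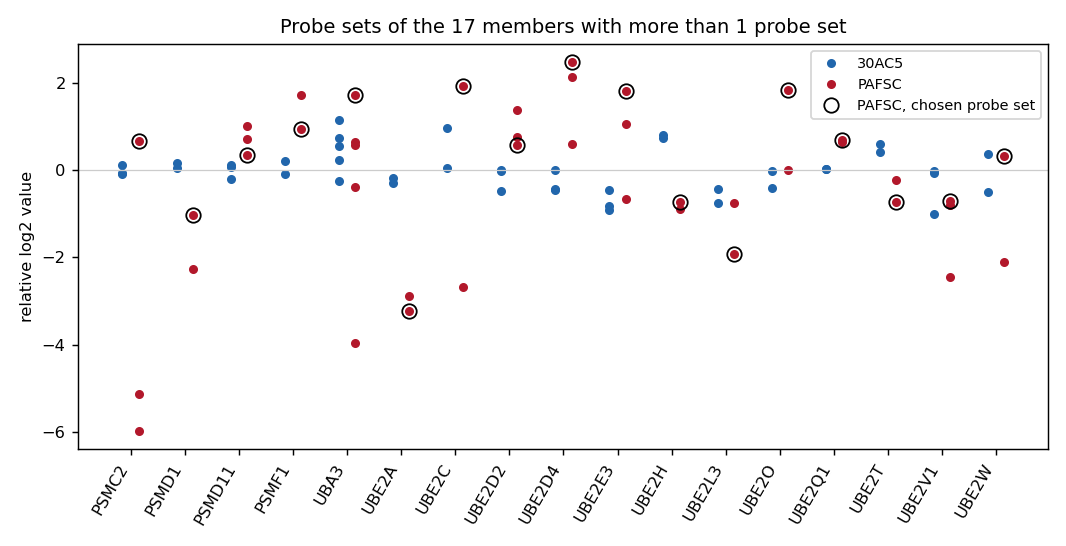
Relative log2 values of every probe set of the 17 members with more than 1, in PAFSC (red) and in the iPS line 30AC5 (blue), with a ring around the PAFSC value of the probe set used. Values of one gene lie within 1.39 of each other in 30AC5 and up to 6.64 apart in PAFSC. In PS24, not shown, they lie up to 2.56 apart.

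Other genes of the pathway were examined from a fixed list of 38, of which 17 were measured. They were ubiquitin genes, proteasome factors, delivery factors and subunits of the anaphase-promoting complex, a large E3 ligase. Limma called 0 of 17 in each of the 3 comparisons. Against PEF 14 were higher and 3 lower in the lines, with a median of 0.12, where 61.4% of all probe sets were higher. At an unadjusted p under 0.05 there were 0 against PEF, 3 against both somatic samples and 0 between the classes, beside 12.3%, 13.7% and 2.84% of all probe sets. The ubiquitin genes were as level as the core: UBB was -0.10 in PEF and -0.03 to 0.01 in the lines, and RPS27A, which encodes ubiquitin fused to a ribosomal protein, was 0.07 and 0.01 to 0.09. SEM1, a small 19S subunit, was -0.48 in PEF and 0.09 to 0.15 in the lines, and in PAFSC it was -1.66. CDC20, an activator of the anaphase-promoting complex, was -0.73 in PEF and -0.27 to 0.01 in the lines. SQSTM1, a receptor for ubiquitinated cargo, was -2.53 in PAFSC, 0.15 in PEF, 0.65 in 30AC5, 0.06 in PS24, 0.37 in iPSCs-w and -0.22 in iPF4-2, with PEF inside the range of the lines.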

How the data were processed

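Biotin-labelled cRNA of each sample was hybridised to the array, per the labels' protocols. The deposited table holds log2 values, made by the authors, of 6 arrays, with 24123 probe sets and 0 empty cells. For the software, summarization, normalization and baseline no source used here gives an account. The 124 array controls were left out of the tests, which left 23999 probe sets, 10069 of them with 1 gene symbol in the platform annotation. By gene ID 64 of the 65 members were found in the RefSeq gene table. The mean that chose the probe set of a gene, and the filter on the lowest 40%, act on relative values.

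Tests used R 4.3.3 and limma 3.58.1 with moderated variances, two-sided; p-values were adjusted by the Benjamini-Hochberg method across the whole table and called at 0.05 (statmod 1.5.0 served the robust fit). The fits were the 4 iPS lines against PEF with PAFSC left out (3 residual degrees of freedom), the lines against both somatic samples (4), and SSEA1-labelled against SSEA3/SSEA4-only lines in 3 classes (3). Tested on simulated data in which 50 of 23999 probe sets were altered per size, limma called for iPS against PEF 0%, 20%, 64% and 84% at 1, 2, 4 and 6 log2 units, for iPS against somatic 0%, 2%, 44% and 76%, and for the SSEA classes 0% at each size. Each simulated probe set had the residual SD of its fit on every array. In the fits with both somatic samples that SD took in the distance of PAFSC from PEF. The fit of only the 4 iPS lines was not simulated, so the 0% does not apply to it.

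Members and lists were chosen with earlier results of these data known. Named were the immune genes, UBE2C and UBE2T, and in each role the genes with the 2 largest differences per comparison and the smallest range; a part is printed. UBE2D4, UBE2M, UBE2O, UBE2V1, UBE2W, PSMB4, PSMC2, PSMD2, PSMD4, PSMD11, PSMD14 and the genes of other lists that are named were added after their values were seen. Alternatives were quantile normalization, median centring, the filter, eBayes with a trend or robust, all probe sets of a gene averaged, only the 4 iPS lines, and each sample left out in turn. A fit without both PAFSC and PS24 was chosen after seeing the data.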

Additional observations from a re-analysis of the deposited data

Results flagged for a closer look

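In the 4 iPS lines, 2 of 65 members had 1 line far from the other 3, both times PS24; by chance about 1 in 20 groups of 4 would show this. PSMA6 was 0.160 in PS24 against -0.009 to 0.004 in the others, a difference that is small in itself. UBE2V2 was -0.642 in PS24 against -0.020 to 0.028.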

How the results depend on the processing

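Limma called 0 members in each comparison under every alternative, except iPS against somatic without PEF, where it called 37. A count of 0 members says little about small differences. In the simulations limma called 0% at 1 log2 unit in each comparison, and between the classes 0% even at 6. Some alternatives repeat another fit. Between the classes, leaving out either somatic sample gives the same calls as only the 4 iPS lines. Against both somatic samples, leaving out PAFSC gives the fit against PEF. The number of probe sets called moved more. Against PEF it was 136, with 17 after quantile normalization and 0 to 19 with 1 line left out. Against both somatic samples it was 6, with 1 after median centring, 35 with the lowest 40% left out, 2 with a trend, and 0 to 14303 with 1 sample left out (136 without PAFSC). Between the SSEA classes it was 0, with 90 after quantile normalization, 44 with the lowest 40% left out, 4 with only the 4 iPS lines, and 0 to 4 with 1 sample left out. Median centring moved the median difference of all probe sets against both somatic samples from -0.34 to -0.04. Of 26 member differences PSMB10 alone turned sign: between the classes it was -0.96 to 0.16 with 1 sample left out (0.16 without 30AC5), and against PEF -0.040 to 0.37 (-0.040 without iPF4-2). PSME1 ran from 1.68 to 2.73 and PSME2 from 0.67 to 1.43 between the classes. No paired analysis was possible because nothing in the labels links a sample of one group with a sample of another. The arrays carry no signal over background here, so whether a member was detected is unknown.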
